A study of Mus musculus with 8 samples.

Results

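The C-type lectin (Clec) genes are the genes whose symbol begins with Clec and a digit. On the Affymetrix Mouse Gene 1.0 ST array, 34 transcript clusters carried exactly 1 such symbol. They stood for 33 genes of 19938 genes tested, and each gene was represented by its brightest cluster over all 8 arrays. No filter on dim genes was applied, so all 33 members were tested. The arrays measured RNA of primary mammary tumors, less than 1.0 cm across, from FvB mice with the MMTV-Neu transgene. In this model the MMTV promoter drives the Neu receptor in mammary epithelium. Sorting split every tumor into tumor-initiating cells (TIC) and a CD24- fraction, with 4 arrays of each, and both groups share strain and transgene. The pairs came from tumors N251, N260 and N283 and from 1 pool of cells of N222 and N229 mixed in equal parts. Neither the ages of the mice nor the sort markers that defined TIC are stated in the labels. Luminal epithelial markers were bright in both fractions. Their mean log2 intensity over 9 genes was 10.87 to 11.01 on the TIC arrays and 10.04 to 10.89 on the CD24- arrays. All 9 had a higher mean in TIC, and the CD24- array of N251 had the lowest level.

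C-type lectins are proteins with a fold that in many of them binds sugars. On macrophages, dendritic cells and neutrophils, Clec receptors sense sugars and lipids of microbes and molecules of dying cells. Activating receptors carry a tyrosine motif of their own or pair with the adaptors Fcer1g or Tyrobp, and then recruit the kinase Syk, which signals through Card9. Inhibitory receptors recruit the phosphatases Ptpn6 and Ptpn11. Other family members are ligands of natural killer cell receptors, secreted proteins of matrix and plasma, or proteins of endothelial cells. In tumors, several Clec receptors are known as surface molecules of infiltrating myeloid cells.

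The following promoter windows are shown because they belong to members with the largest differences between the fractions, with Clec12b as a chromosomal neighbour of Clec12a that differed little. Clec4n, whose difference of -2.84 was also among the largest, had no matched window and is not shown. Each runs 5′ to 3′ from 250 bases before to 50 bases after the transcription start in RefSeq (GRCm38.p6). Capitals mark GAGGAA or its reverse complement TTCCTC, a core recognised by the myeloid factor PU.1 and other ETS proteins.
Clec12a, chr6:129349994-129350293, plus strand: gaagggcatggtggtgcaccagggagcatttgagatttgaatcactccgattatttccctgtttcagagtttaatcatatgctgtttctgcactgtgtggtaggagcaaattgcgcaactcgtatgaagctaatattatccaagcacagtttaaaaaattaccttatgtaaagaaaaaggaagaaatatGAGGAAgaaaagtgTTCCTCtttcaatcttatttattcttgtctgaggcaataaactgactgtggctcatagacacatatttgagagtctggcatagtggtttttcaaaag
Clec5a, chr6:40585756-40586055, minus strand: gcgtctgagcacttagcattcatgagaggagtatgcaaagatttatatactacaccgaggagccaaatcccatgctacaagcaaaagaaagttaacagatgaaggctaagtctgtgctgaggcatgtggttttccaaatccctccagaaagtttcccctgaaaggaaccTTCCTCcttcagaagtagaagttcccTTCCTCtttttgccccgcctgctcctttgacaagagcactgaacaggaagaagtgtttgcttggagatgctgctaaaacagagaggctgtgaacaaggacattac
Clec7a, chr6:129472730-129473029, minus strand: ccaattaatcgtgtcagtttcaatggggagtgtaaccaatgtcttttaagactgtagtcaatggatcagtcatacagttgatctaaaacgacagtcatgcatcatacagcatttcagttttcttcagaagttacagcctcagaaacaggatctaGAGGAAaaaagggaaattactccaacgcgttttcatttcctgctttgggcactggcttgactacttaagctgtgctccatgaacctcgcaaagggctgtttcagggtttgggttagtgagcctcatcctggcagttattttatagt
Clec4a2, chr6:123122440-123122739, plus strand: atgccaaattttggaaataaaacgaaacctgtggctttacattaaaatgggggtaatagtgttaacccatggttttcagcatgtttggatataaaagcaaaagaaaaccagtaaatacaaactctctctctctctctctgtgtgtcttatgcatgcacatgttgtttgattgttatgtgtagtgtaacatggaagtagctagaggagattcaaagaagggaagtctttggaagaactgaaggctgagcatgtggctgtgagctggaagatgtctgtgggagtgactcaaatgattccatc
Clec4a3, chr6:122952265-122952564, plus strand: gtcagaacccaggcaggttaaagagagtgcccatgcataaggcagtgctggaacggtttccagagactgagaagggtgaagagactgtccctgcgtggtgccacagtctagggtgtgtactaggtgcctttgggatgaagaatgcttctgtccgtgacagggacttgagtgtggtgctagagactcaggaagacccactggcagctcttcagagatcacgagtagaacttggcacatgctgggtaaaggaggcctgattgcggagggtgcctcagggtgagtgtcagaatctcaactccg
Clec12b, chr6:129385454-129385753, minus strand: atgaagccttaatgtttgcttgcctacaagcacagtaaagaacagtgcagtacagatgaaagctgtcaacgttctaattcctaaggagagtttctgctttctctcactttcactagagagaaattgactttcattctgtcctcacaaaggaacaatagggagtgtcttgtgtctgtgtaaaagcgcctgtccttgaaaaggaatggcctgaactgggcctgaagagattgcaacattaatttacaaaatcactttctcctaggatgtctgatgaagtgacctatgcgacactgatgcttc
The motif GAGGAA, searched on both strands, occurred 2 times in the Clec12a window, on either strand, and 2 times in the Clec5a window, both as TTCCTC. The Clec7a window held it 1 time. It was not among the letters of the Clec4a2 and Clec12b windows or of the Clec4a3 window shown, and the other Clec4a3 window held 1 TTCCTC. For Clec7a and Clec4a3, which have 2 overlapping windows each, 1 is shown. Of the 33 members, 26 were matched to 29 windows, in which pairs of overlapping windows share sequence. GAGGAA was in 8 of 14 windows (57.1%) of members that were lower in the TIC fraction at an unadjusted p under 0.05, in 8 of 15 windows (53.3%) of the other members, and in 28.3% of all 32851 windows in the table. TTGCNNAA, a C/EBP motif searched on both strands, was in 4 of 14, 2 of 15 and 10.8% of the same windows. The AP-1 motif TGANTCA was in 2 of 14, 4 of 15 and 7.81%, and an interferon response (IRF) motif in 2 of 14, 1 of 15 and 3.44%, again on both strands. These matches describe letters and are no measured binding.

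Clec12a, Clec4n, Clec5a, Clec7a, Clec4a2 and Clec4a3, receptors of myeloid cells, had mean levels 5.10-fold to 9.29-fold lower in the TIC fraction, and Clec2i, a ligand of a natural killer cell receptor, a level 3.80-fold lower. These differences did not pass the threshold with the tumor as a fixed block, and 20 of the 33 members differed by at most 0.252 on the log2 scale. No Clec gene passed the threshold of an adjusted p under 0.05 in the limma fit with the tumor as a block, in which 218 genes fell (1.09% of genes tested) and 172 rose (0.863%). The nearest were 7 members with adjusted p-values of 0.0514 to 0.0560, all lower in all 4 tumors. At an unadjusted p under 0.05, 13 of the 33 members were lower and 0 were higher, where 8.08% and 14.2% of all genes were. In all 4 tumors 15 members were lower and 0 higher, against 11.8% and 23.2% of all genes. For 11 members every TIC array was below every CD24- array, as for 4.68% of all genes, and 6 members differed by more than 2 on the log2 scale, as did 1.36% of all genes. The median difference of the members was -0.18 on the log2 scale, and that of all genes was 0.04. In these sorted bulk samples, fewer cells of a type and less RNA per cell cannot be told apart.

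The count of called members depended on how the tumor entered the fit. Without the tumor as a replicate block limma called 3 members lower, Clec4a2, Clec4n and Clec5a (adjusted p = 0.0217, 0.0490 and 0.0234), against 0.742% of all genes. With the tumor as a random block it called 11 lower, against 3.04% of all genes. These were Clec12a, Clec4n, Clec5a, Clec7a, Clec4a2, Clec4a3, Clec2i, Clec4e, Clec4a1, Clec2d and Clec9a. In these fits 0 members were called higher, where 0.0502% of all genes were without the block and 2.16% with the random block. With the fixed block and without tumor N251, whose CD24- array had the highest level of 22 members, 7 were called lower, among 480 of all 19938 genes. Without the pool of N222 and N229, 4 were, among 299 genes. Without N260 or without N283, 0 members and 0 genes in all were called in either direction.

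**Figure D1:**
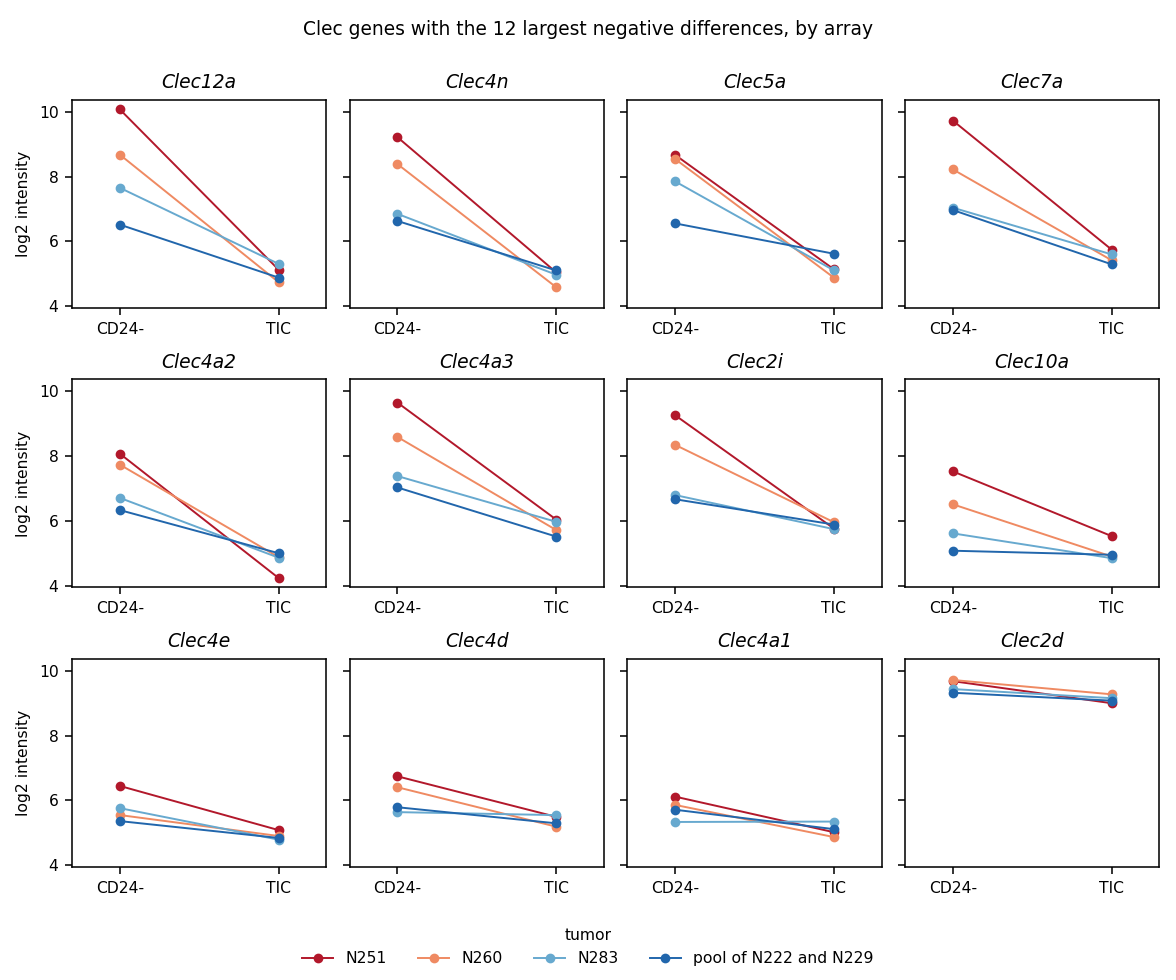
Log2 intensity (vertical axis) of the 12 Clec genes with the most negative differences in the CD24- and TIC arrays (horizontal axis), with a line joining the 2 arrays of each tumor. For Clec12a, Clec4n, Clec5a, Clec7a, Clec4a2 and Clec4a3 every TIC array lies below every CD24- array, and the CD24- array of N251 is the highest.

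Among the receptors of the Dectin-1 group, Clec12a and Clec7a were far lower in the TIC fraction. Clec12a encodes an inhibitory receptor of granulocytes and monocytes. Its log2 intensity was 10.07, 8.68, 7.65 and 6.52 in the CD24- arrays of N251, N260, N283 and the pool, and 5.13, 4.74, 5.31 and 4.88 in the TIC arrays in the same order. The groups did not overlap, and the CD24- arrays spread far more than the TIC arrays. Clec12a differed by -3.22 ± 0.55 (SE), a 9.29-fold lower mean level, with an adjusted p = 0.0546 (limma). Clec7a encodes Dectin-1, the receptor for fungal beta-glucan. It stood at 9.73, 8.22, 7.04 and 6.97 in the CD24- arrays and at 5.75, 5.42, 5.60 and 5.29 in the TIC arrays. Every TIC array was below every CD24- array, and N251 had the largest gap. The difference of Clec7a was -2.47 ± 0.43 (5.56-fold, adjusted p = 0.0560, limma).

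The other 4 members of the group had differences of at most 0.35 in size. Clec9a encodes DNGR-1, a receptor of cross-presenting dendritic cells for the actin of dead cells. Its values were 5.46, 5.19, 5.35 and 5.57 in the CD24- arrays and 5.16, 4.94, 4.90 and 5.19 in the TIC arrays, in the order N251, N260, N283 and pool. The groups were separated at a dim level by less than the rounding of these values, and the difference of -0.35 ± 0.07 had the lowest spread over tumors of the 13 members at an unadjusted p under 0.05 (SD 0.09, adjusted p = 0.0822, limma). The 8 markers of the same dendritic cells had a median difference of -0.48. Of these, 2 were called lower and 0 higher, against 1.09% and 0.863% of all genes. At an unadjusted p under 0.05, 4 were lower and 1 higher, against 8.08% and 14.2% of all genes. Irf8 and Itgae, which other leukocytes also express, fell, with differences of -2.92 and -2.98. The others were Naaa (-1.07), Cadm1 (-0.76), Flt3 (-0.20), Xcr1 (-0.15), Batf3 (-0.11) and Tlr3, which was higher in all 4 tumors without overlap (0.41). The list had a mean level of 7.42 to 7.68 on the TIC arrays and 7.90 to 9.13 on the CD24- arrays, and their part in the Clec9a value was not tested. Clec1b, the platelet receptor for podoplanin, differed by 0.08 (95% interval -0.10 to 0.25). Clec1a, known from endothelium and myeloid cells, differed by -0.01 (-0.26 to 0.24), and the inhibitory receptor gene Clec12b by -0.01 (-0.21 to 0.19). Platelet markers differed little as a list (median -0.06 over 6 genes, 0 called), although Pf4 differed by -0.62.

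Receptors of the Dectin-2 group and the related Clec4a genes formed the largest block of lower members. Of 9 genes, 6 were lower at an unadjusted p under 0.05 and 0 were higher, against 8.08% and 14.2% of all genes. Their median difference was -0.76. Clec4n encodes Dectin-2, a receptor for mannose-rich fungal sugars that signals through Fcer1g. It was at 9.22, 8.39, 6.85 and 6.63 in the CD24- arrays of N251, N260, N283 and the pool and at 5.04, 4.59, 4.97 and 5.10 in the TIC arrays. The fractions did not overlap, and the pair of N251 and N260 was well above the pair of N283 and the pool in the CD24- fraction. The Clec4n difference was -2.84 ± 0.49, or 7.18-fold (adjusted p = 0.0554, limma).

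Clec4a2 and Clec4a3, genes of the dendritic cell immunoreceptor (DCIR) family, stood apart between the fractions to a like degree. Clec4a2, which encodes the inhibitory receptor DCIR itself, had values of 8.08, 7.74, 6.71 and 6.34 in the CD24- arrays and 4.24, 4.88, 4.87 and 5.005 in the TIC arrays. Its difference of -2.47 ± 0.41 (5.53-fold) had the lowest adjusted p of the family, 0.0514 (limma). Clec4a3 was at 9.65, 8.59, 7.38 and 7.03 against 6.04, 5.72, 5.97 and 5.52, again without overlap. It differed by -2.35 ± 0.39 (5.10-fold, adjusted p = 0.0529, limma).

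Smaller differences were seen for the Mincle gene Clec4e and its partner Clec4d. Mincle binds mycobacterial glycolipids and a nuclear protein released by dying cells. Clec4e was at 6.45, 5.55, 5.76 and 5.36 in the CD24- arrays and at 5.09, 4.90, 4.79 and 4.84 in the TIC arrays, without overlap, and differed by -0.88 ± 0.15 (adjusted p = 0.0560, limma). Clec4d, which encodes the receptor MCL, had a difference of -0.76 ± 0.21, with values from -1.25 in N251 to -0.09 in N283. Clec4a1 differed by -0.67 ± 0.19 but was 0.01 higher in N283, so its fractions overlapped. Clec4b1, Clec4b2 and Clec4a4 differed by -0.20, -0.18 and -0.01, and the intervals of all 3 included 0.

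Of the other receptors of myeloid cells, Clec5a showed a large difference and Clec10a an uneven one. Clec5a encodes MDL-1, an activating receptor of monocytes and macrophages that pairs with Tyrobp. It was at 8.67, 8.54, 7.85 and 6.56 in the CD24- arrays of N251, N260, N283 and the pool and at 5.14, 4.88, 5.11 and 5.62 in the TIC arrays. No TIC array reached the lowest CD24- array, and the pool had the narrowest gap. Clec5a differed by -2.72 ± 0.46, or 6.58-fold (adjusted p = 0.0538, limma). Clec10a encodes a macrophage receptor for galactose-type sugars. Its CD24- values were 7.53, 6.51, 5.62 and 5.08 and its TIC values 5.53, 4.90, 4.85 and 4.96, so the TIC array of N251 was above the CD24- array of the pool. The difference of -1.12 ± 0.31 (adjusted p = 0.129, limma) ranged from -1.996 in N251 to -0.13 in the pool. Mgl2, its close relative on dendritic cells, differed by -0.29 (adjusted p = 0.247, limma).

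No difference was detected for receptors known from liver. Clec4f, which marks Kupffer cells, was at 6.76, 6.66, 6.75 and 6.49 in the CD24- arrays and at 7.02, 6.65, 6.69 and 6.62 in the TIC arrays, which overlapped. Its difference was 0.08 (95% interval -0.13 to 0.29). Clec4g, a receptor of liver sinusoidal endothelium, was the 1 member with 2 transcript clusters. These differed by -0.07 and -0.06.

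**Figure D2:**
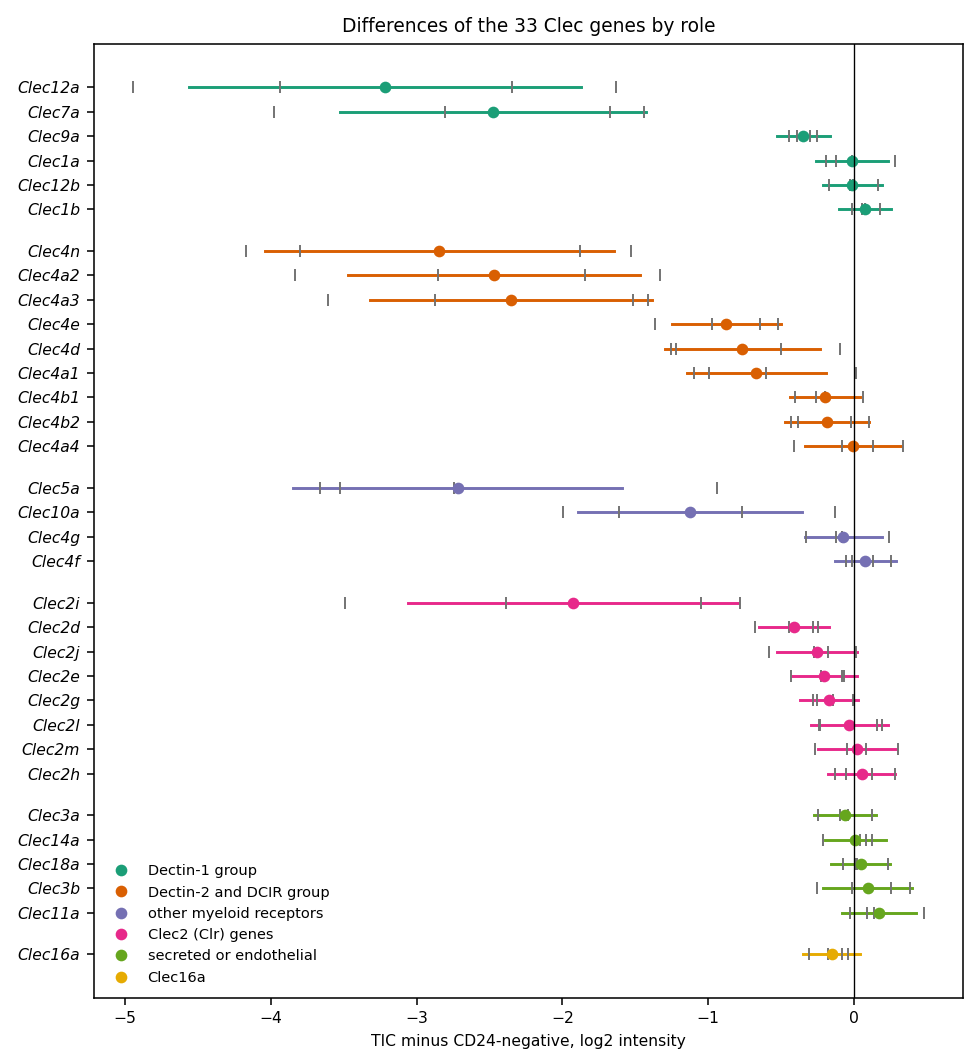
Difference between the fractions on the log2 scale (horizontal axis) for all 33 Clec genes grouped by role, with points for the mean over 4 tumors, bars for the 95% interval of the limma fit with the tumor as a block, and grey ticks for the single tumors. The intervals of 13 genes lie below 0, and 0 intervals lie above 0, against 8.08% and 14.2% of all genes.

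Several Clec2 genes encode Clr proteins, ligands of Nkrp1 receptors on natural killer cells and T cells. Of the 8 Clec2 genes measured, 2 were lower and 0 higher at an unadjusted p under 0.05, against 8.08% and 14.2% of all genes. Clec2i encodes Clr-g, a ligand of the receptor encoded by Klrb1f. Its values were 9.26, 8.35, 6.80 and 6.67 in the CD24- arrays of N251, N260, N283 and the pool and 5.77, 5.96, 5.75 and 5.89 in the TIC arrays. The TIC values were nearly level, and all CD24- values were above them. Clec2i differed by -1.93 ± 0.46 (3.80-fold, adjusted p = 0.102, limma), and Klrb1f by -2.82 (adjusted p = 0.0653, limma).

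Clec2d, which encodes the widely expressed ligand Clr-b, is made by many cell types. It was at 9.68, 9.72, 9.44 and 9.32 in the CD24- arrays and at 9.001, 9.28, 9.16 and 9.08 in the TIC arrays. The highest TIC value lay just under the lowest CD24- value. Its difference was -0.41 ± 0.10 (1.33-fold, adjusted p = 0.102, limma), much smaller than the -1.47 of Klrb1b, which encodes an inhibitory receptor for Clr-b (adjusted p = 0.0583, limma). The other Clec2 members ranged from -0.25 for Clec2j, listed as a pseudogene, to 0.06 for Clec2h. Between them were Clec2e (-0.20), Clec2g (-0.17), Clec2l (-0.03) and Clec2m (0.02), and the intervals of these 6 included 0.

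No difference was detected for secreted and endothelial members. Of 5 genes, 0 had an unadjusted p under 0.05, where 8.08% of all genes were lower and 14.2% higher. Their differences ran from -0.06 to 0.17. Clec11a, a secreted growth factor for bone and blood progenitors, had the highest difference of the family at 0.17 (95% interval -0.08 to 0.42). Clec18a, a secreted lectin, was at 7.39, 7.25, 7.35 and 7.22 in the CD24- arrays of N251, N260, N283 and the pool and at 7.63, 7.27, 7.36 and 7.15 in the TIC arrays. These overlapped, and the difference was 0.05. Clec3b, which encodes the plasminogen-binding protein tetranectin, differed by 0.09, and Clec3a, known from cartilage, by -0.06. Clec14a, an endothelial adhesion protein that binds Mmrn2, differed by 0.01 (-0.20 to 0.22), and Mmrn2 by -0.04. The endothelial marker list had a median of -0.09 over 10 genes with 0 called.

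Clec16a shares the family's name but acts in endosomal trafficking and autophagy. It was at 9.59, 9.35, 9.26 and 9.38 in the CD24- arrays of N251, N260, N283 and the pool and at 9.29, 9.17, 9.18 and 9.33 in the TIC arrays. It was lower in all 4 tumors by 0.04 to 0.31, the groups overlapped, and the difference of -0.15 did not pass the test (adjusted p = 0.315, limma).

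On chromosome 6, Clec genes with large differences lay beside others with small ones. By RefSeq, 25 of the 33 members are on this chromosome, and 22 of these lie in 2 dense runs. In the run from Clec4a1 to Clec4e, 6 of 9 members were lower at an unadjusted p under 0.05, as were 8.08% of all genes. Clec4a3 (-2.35) is followed by Clec4a4 (-0.01) and Clec4b1 (-0.20), then Clec4a2 (-2.47), Clec4b2 (-0.18) and Clec4n (-2.84). In the run from Clec2j to Clec7a, 5 of 13 members were lower at an unadjusted p under 0.05, against the same 8.08% of all genes. There Clec12a (-3.22) is followed by Clec12b, Clec1b, Clec9a and Clec1a, which lay between -0.35 and 0.08, and then by Clec7a (-2.47). Whether the clusters of Clec12b, Clec1b and Clec9a are separate in sequence was not tested. Clec12a differed by -4.95 to -1.63 over the tumors, and Clec12b by -0.17 to 0.17. With 4 tumors an exact sign-flip test cannot give a two-sided p under 0.125, so no test of neighbours was made.

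**Figure D3:**
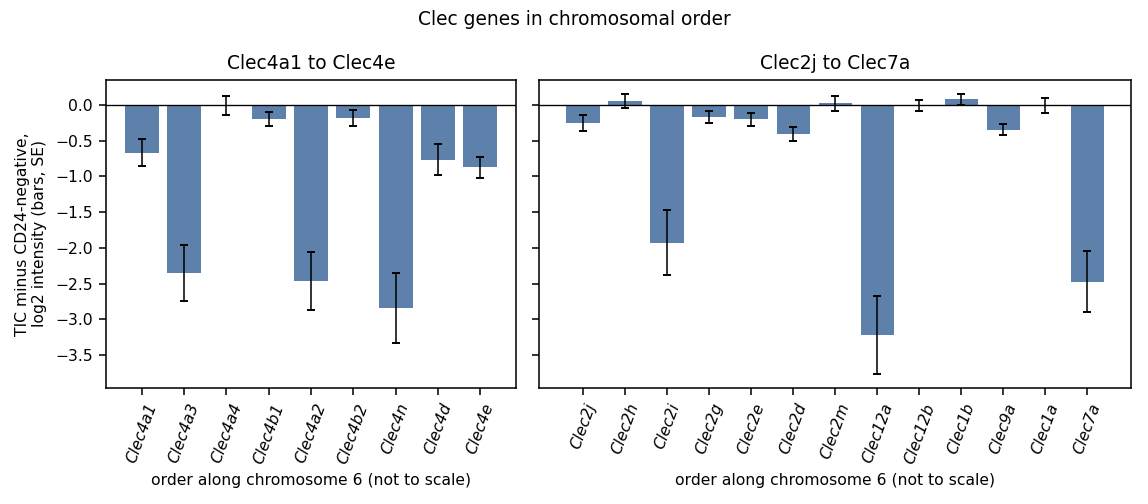
Difference between the fractions on the log2 scale (vertical axis, bars with SE of the limma fit, 4 tumors) for the Clec genes of both dense runs on chromosome 6, in chromosomal order and not to scale. Differences below -2 at Clec4a3, Clec4a2, Clec4n, Clec12a and Clec7a stand beside neighbours with differences near 0. Of these neighbours, Clec4a4, Clec4b1, Clec4b2, Clec12b, Clec1b and Clec1a were dim in both fractions.

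The size of the difference varied between tumors, and for the lower members the variation lay mostly in the CD24- arrays. Over all 33 members the mean difference was -1.08 for N251, -0.85 for N260, -0.48 for N283 and -0.37 for the pool. For the 6 members that differed by more than 2 it was -4.01, -3.32, -1.94 and -1.44. Their mean level in the CD24- arrays was 9.24, 8.36, 7.25 and 6.67 in the same order, whereas in the TIC arrays it was 5.22, 5.04, 5.30 and 5.24. The CD24- array of N251 was the highest of its group for all 6, for 22 of the 33 members and for 37% of all genes. The SD in the CD24- arrays had a median of 0.97 over the 13 members lower at an unadjusted p under 0.05, against 0.20 in the TIC arrays. Over the other 20 members it was 0.16 and 0.17, and over all genes 0.20 and 0.15. Of the 13 members, 12 had a TIC mean under the lower quartile of the TIC arrays, as did all 6 above. Their dim signal limits what the small TIC spread can show.

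Differences of single genes were ordered N251, N260, N283 and pool, most negative first, for 7 of the 33 members and 9.73% of all genes. Marker lists of macrophages, both types of conventional dendritic cells, natural killer cells and T cells showed the same order of tumors. Their mean differences for N251 and for the pool were -1.45 and -0.49 for type 1 and -2.26 and -0.80 for type 2 dendritic cells, -2.40 and -0.61 for natural killer cells, and -3.26 and -1.11 for T cells. Of the 12 macrophage markers, 9 fell, against 1.09% of all genes, and all 12 were lower in all 4 tumors, against 11.8%. Their mean differences were -5.38, -4.55, -3.68 and -2.66 in N251, N260, N283 and the pool. Their mean level was 6.56 to 6.94 on the TIC arrays and 9.60 to 12.13 on the CD24- arrays. Neutrophil markers had a median of -0.37 with 0 of 10 called. At an unadjusted p under 0.05, 5 of them were lower and 1 higher, against 8.08% and 14.2% of all genes. The mean level of neutrophil markers was 5.68 to 5.97 on the TIC arrays and 5.86 to 6.67 on the CD24- arrays. Further lists had medians of -0.99 for 7 markers of type 2 conventional dendritic cells, -0.31 for 7 of plasmacytoid dendritic cells, -1.15 for 7 of natural killer cells, -1.76 for 6 of T cells, -0.49 for 5 of B cells and -0.19 for 10 of fibroblasts. In these lists 2, 1, 1, 1, 1 and 1 genes fell and 0 rose, against 1.09% and 0.863% of all genes. Marker lists of neutrophils, plasmacytoid dendritic cells, B cells, fibroblasts, platelets and endothelium broke the order N251, N260, N283 and pool. In that order, neutrophil markers had mean differences of -0.70, -0.19, -0.37 and -0.18. Those of plasmacytoid dendritic cells had -0.89, -0.51, -0.58 and -0.56. B cell markers had -0.918, -0.755, -0.760 and -0.247, and fibroblast markers -0.53, -0.76, -0.37 and -0.46. The 9 luminal epithelial markers had a median difference of 0.40 with 0 called, and mean differences of 0.97, 0.27, 0.02 and 0.10. The part of any of these cells in the Clec values was not tested.

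**Figure D4:**
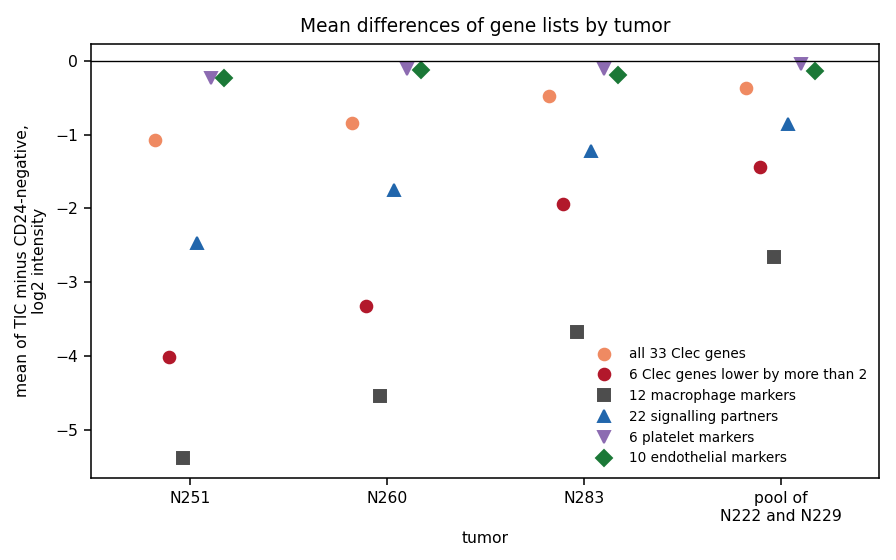
Mean difference between the fractions on the log2 scale (vertical axis) in each tumor (horizontal axis) for all 33 Clec genes, the 6 Clec genes that differed by more than 2, chosen by their values, and marker and partner lists. The Clec, macrophage and partner means are lowest in N251 and highest in the pool, and the platelet and endothelial means stay between -0.24 and -0.0385.

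Several genes on the list of signalling partners of Clec receptors passed the test. Of 22 measured partners, 6 fell and 0 rose in the fit with the tumor as a block, against 1.09% and 0.863% of all genes. The median difference of the partners was -0.96. At an unadjusted p under 0.05, 15 were lower and 2, Ptpn11 and Traf6, higher, against 8.08% and 14.2% of all genes. The adaptor gene Fcer1g, partner of Dectin-2 and Mincle, had a mean level of 6.57 ± 0.17 (SD, n = 4) in TIC and 11.56 ± 1.02 in CD24- cells, a difference of -4.99 ± 0.41 (adjusted p = 0.0189, limma). Tyrobp, the adaptor of Clec5a, fell by 4.96 (adjusted p = 0.0189, limma). Also lower at adjusted p-values under 0.05 were Vav1, an exchange factor for Rac (-3.61), the lipid phosphatase gene Inpp5d (-3.48), the NF-kappaB subunit gene Rel (-3.27) and Itgam, the integrin chain CD11b (-2.79).

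Syk, Card9 and the phosphatase gene Ptpn6 did not pass the threshold with the fixed block or with no block. They passed it with the tumor as a random block (adjusted p = 0.0296, 0.0410 and 0.0419, limma). That fit called 12 of the 22 partners lower and 0 higher, against 3.04% and 2.16% of all genes. With the fixed block, Syk, the kinase of the pathway, differed by -1.85 (adjusted p = 0.0792, limma) and Card9 by -0.87 (adjusted p = 0.102, limma). Of the tyrosine phosphatases of inhibitory receptors, Ptpn6 differed by -1.08 and Ptpn11 by 0.26 (adjusted p = 0.120 and 0.178, limma). The complex of Bcl10 and Malt1, which acts after Card9, differed by -0.19 and -0.24. Itgam, Syk, Card9, Ptpn6, Ptpn11, Traf6, Bcl10 and Malt1 were singled out after their values were seen.

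Other genes with a C-type lectin domain showed a like mixture. Of 64 measured, 4 fell and 0 rose with the tumor as a fixed block, where 1.09% and 0.863% of all genes did. With the random block 15 were called lower and 1 higher, against 3.04% and 2.16% of all genes. At an unadjusted p under 0.05, 24 were lower and 4 higher, against 8.08% and 14.2% of all genes. The median difference of these 64 genes was -0.10, against -0.18 for the Clec genes. The 4 that fell, named for that reason, were Klra5 (-2.63) and Klra2 (-2.49) of the Ly49 receptors, Cd72 of B cells and myeloid cells (-1.50) and Cd209a (-1.13), a relative of DC-SIGN. Larger differences that did not pass were those of the natural killer receptor gene Klrd1 (-3.23), the mannose receptor gene Mrc1 (-3.14), the activation marker Cd69 (-2.95) and Klrb1f, with adjusted p-values of 0.0583, 0.0618, 0.0618 and 0.0653 (limma). The difference between this list and the Clec genes was not tested.

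The list of ligands and target receptors of the family held 13 measured genes. It included the Nkrp1 receptor genes Klrb1a, Klrb1c and Klrb1f and the cytokine gene Tnf. Of the 13, 0 were called by limma with the tumor as a fixed block. At an unadjusted p under 0.05, 7 were lower and 1 was higher, against 8.08% and 14.2% of all genes. With the tumor as a random block, Klrb1f, Vim and Klrb1a were called lower and Anxa1 higher, against 3.04% and 2.16% of all genes. The podoplanin gene Pdpn, whose product binds the receptor of Clec1b, differed by -0.20. Vim, whose product vimentin binds Dectin-1, differed by -1.59 (adjusted p = 0.0601, limma), the Nkrp1 receptor gene Klrb1a by -1.52 and Tnf by -1.28. Anxa1, another ligand of Dectin-1 on dying cells, was higher in all 4 tumors by a mean of 0.73 (adjusted p = 0.0829, limma), and its fractions overlapped. Klrb1a, Klrb1c and Klrb1f stand in both the ligand list and the list of lectin-domain genes.

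Many Clec genes were dim in the TIC fraction. Of the 33 members, 24 had a TIC mean under the lower quartile of the TIC arrays, as did all 6 members that differed by more than 2. At these levels a lower mean does not show that a transcript was absent.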

How the data were processed

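The deposited values are log2 intensities per transcript cluster. The authors made them with RMA and Partek per the submitters' processing notes, which name no version or build. Of 35556 rows, 21789 carried 1 gene symbol in the platform annotation, 1621 several and 12146 none, which left 19938 genes by the brightest row. Names were looked up by gene identifier in a RefSeq table of GRCm38.p6, which renamed 0.

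TIC minus CD24- differences were fitted over all genes with limma 3.58.1 in R 4.3.3 (lmFit, eBayes) with the tumor as a fixed block, since both fractions of a pair came from the same tumor or pool per the labels. Arrays of a pair deviated together from the means of their groups (r = 0.322 for N251, 0.435 for N260, 0.300 for N283, 0.557 for the pool). Calls used a threshold of 0.05 on p-values adjusted over all genes by Benjamini-Hochberg. Fits were tested on simulated data. Tumor names follow the titles (N251, N260), where the protocol in the labels has N250 and N261.

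The rule named all members, gave values by array for called members, the 3 largest differences and the brightest gene of each role, and the 5 largest differences of each partner list. Values by array of Clec4a2, Clec2i, Clec10a, Clec4e and Clec9a were added after seeing them. Members and lists were chosen with earlier results of these data known. Genes of a list without a single-symbol row were not analysed here. Cross-hybridisation between related Clec genes was not tested. Precision is limited by the number of arrays.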

Additional observations from a re-analysis of the deposited data

Results flagged for a closer look

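Of 66 groups of 4 Clec values, 3 held an array that lay far from its group, and about 3.3 are found by chance. Among TIC arrays, Clec10a was at 5.533 in N251 (others 4.852 to 4.956), and Clec4b2 was at 5.391 in N251 (others 4.990 to 5.027). In the CD24- fraction, Clec14a was at 5.461 in the pool of N222 and N229 (others 5.633 to 5.641).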

How the results depend on the processing

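The fixed block for tumor called 0 members lower. The count was 3 with no replicate block, 11 with a random block, 7 with array weights (572 of all 19938 genes) and 4 after median centring (239 genes), where the fixed block called 218 genes lower. It stayed at 0 with trend and robust priors, after cyclic loess, with the mean of a gene's clusters, with all rows, at an adjusted p under 0.01, and among the 2 members at or above the median level of all genes. Leaving out a tumor gave 0 to 7 members lower, 7 without N251, 4 without the pool and 0 without N260 or N283. The count of members called higher was 0 in every setting run. Of 431 values of single members, 370 kept direction and call, 36 became called and 25 changed sign. All of the last were in 10 members with a difference no larger than 0.0944. With array weights these were Clec12b (0.011), Clec14a (-0.036), Clec2l (0.024), Clec2m (-0.018), Clec4a4 (0.070) and Clec4g (0.0095), and after median centring Clec12b (0.023), Clec1a (0.022), Clec2l (0.0036) and Clec4a4 (0.028). Over the fits without 1 tumor each, signs turned for Clec12b (-0.068 to 0.043), Clec14a (-0.027 and -0.013 to 0.085), Clec18a (-0.014 to 0.060 and 0.090), Clec1a (-0.11 to 0.027 and 0.050), Clec2h (-0.019 to 0.12), Clec2l (-0.10 to 0.041), Clec2m (-0.074 to 0.12), Clec3b (-0.0031 to 0.21), Clec4a4 (-0.12 and -0.052 to 0.13) and Clec4g (-0.17 to 0.014). The cause was not tested. Background signal was not measured, which limits what dim members can show.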
